A study of Mus musculus with 8 samples.

Results

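The mouse major histocompatibility complex, called H2, was examined as the window chr17:33900001-37300000 of the genome build mm9, which spans its classes I to III. The members were chosen by position alone: the 334 deposited rows of 10 kb inside the window, of 253926 rows in all, and the peaks centred in it, which were 28 of the 8375 H3.3K36M peaks and 2 of the 73 H3.1K36M peaks. Of the 334 rows, 332 passed a filter on low signal (4-library mean of 0.5 RPM or more) and are called bins here. Another 3 rows of the window were 20 kb wide and are given apart. RPM is the deposited read number scaled to library size.

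The signal came from chromatin immunoprecipitation and sequencing (ChIP-seq) with an antibody to the HA tag in 4 lines of C3H10T1/2 cells, mesenchymal progenitors from embryos of C3H mice. The lines stably expressed FLAG-HA-tagged H3.3K36M, H3.3 wild type (H3.3WT), H3.1K36M or H3.1 wild type (H3.1WT), and each gave 1 HA library. K36M is a lysine-to-methionine replacement in the tail of histone H3. All lines also carry their own untagged H3, and the sources used here do not say whether a line is 1 clone or a pool. With 1 library per line nothing could be checked in replicates. Intervals are exact (Clopper-Pearson) at 95%, computed on reads, and cover counting error only, since reads with no molecular identifier need not be separate molecules. Both H3.3 HA samples have titles that begin with an H3.1 name, and their genotype labels, which say H3.3, were followed. The C3H strain and C57BL/6J, the strain of the mouse reference genome, carry different H2 haplotypes, and its part in the levels below was not tested.

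The complex is one of the most gene-dense and most variable parts of the mouse genome. Class I genes such as H2-K1 and H2-D1 encode the molecules that present peptides from inside the cell to cytotoxic T cells, and class II genes such as H2-Ab1 and H2-Eb1 encode those that present peptides taken up by specialised immune cells to helper T cells. Class III, between them, holds complement, cytokine and housekeeping genes. Histone H3.1 is placed on DNA mainly when it is replicated. H3.3 is also placed outside replication, by HIRA at active genes and regulatory elements and by DAXX with ATRX in silent repeats, so its profile is known to be uneven where that of H3.1 is flat. Among the genes of the complex is Daxx itself, near the proximal end.

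Gene order was taken from a RefSeq table of another build, GRCm38.p6, in which all 76 listed genes of the complex were found on chromosome 17. From the proximal side it runs from Phf1, Kifc1, Daxx, Zbtb22, Tapbp and Rps18 to H2-K2 and H2-K1, then Ring1, Rxrb and Col11a2, and on to the class II block with Brd2, Psmb9, Tap1, Psmb8 and Tap2 up to H2-Ea. Class III follows from Notch4 through C4b, Ehmt2, Hspa1b and Bag6 to Ltb, Tnf, Lta and Ddx39b. H2-D1 and the H2-Q genes come next, then Pou5f1, Tcf19, Ddr1, Ier3, Flot1 and Tubb5, the H2-T genes, Trim39, and the H2-M genes with Trim26, Mog, Gabbr1 and Ubd among them. The table and the signal use different builds, so no gene was put on a bin, and the genic position of the named regions is not known here.

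All 4 libraries had a higher median in the window than over all bins, by a larger factor in the H3.3 libraries than in the H3.1 libraries. Bins of the window had a median HA signal of 6.24 RPM in H3.3K36M cells, 5.33 RPM in H3.3WT cells, 4.82 RPM in H3.1K36M cells and 4.36 RPM in H3.1WT cells. Over all 245206 bins of chromosomes 1 to 19 and X the medians were 3.004, 2.77, 3.64 and 3.65 RPM in the same order. The window's medians were thus 2.08 times the library's own median in H3.3K36M, 1.92 times in H3.3WT, 1.32 times in H3.1K36M and 1.19 times in H3.1WT. Bins at least 2-fold above their library's median made up 52.1% of the window in H3.3K36M, 48.8% in H3.3WT, 12.05% in H3.1K36M and 9.04% in H3.1WT, and 15.4%, 23.1%, 1.60% and 1.84% of all bins in the same order. In the 5 Mb on the proximal side such bins made up 35.9%, 46.4%, 13.3% and 7.60%, near the window in all but H3.3K36M. In the 5 Mb on the distal side they made up 4.39%, 1.46%, 1.46% and 2.09%. A median bin of the window held 241 reads in H3.3K36M, 248 in H3.3WT, 200 in H3.1K36M and 154 in H3.1WT.

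Its surroundings were uneven, with the proximal side near the window in H3.3 and the distal side far below it. In the 5 Mb on the proximal side the median was 4.92 RPM in H3.3K36M cells, 5.14 RPM in H3.3WT cells, 5.04 RPM in H3.1K36M cells and 4.75 RPM in H3.1WT cells. In the 5 Mb on the distal side it was 2.77, 2.00, 3.64 and 3.78 RPM in that order, so H3.3 lay below H3.1 there. The mean of the window was 1.48 times that of both sides together in H3.3K36M and 1.44 times in H3.3WT, against 1.10 times in H3.1K36M and 1.045 times in H3.1WT. The proximal side alone had means of 5.93, 6.06, 5.30 and 4.91 RPM in that order, against 6.74, 6.03, 4.96 and 4.59 RPM in the window. Only H3.3K36M was thus clearly higher in the window than there. The distal means included the bin chr17:39980001-39990000, at 53.5 RPM in H3.3K36M cells and 57.9 RPM in H3.3WT cells. The H3.3 level fell off sharply past the distal end: the last 500 kb of the window averaged 5.29 ± 2.66 RPM in H3.3K36M cells and 4.80 ± 2.55 RPM in H3.3WT cells, and the next 500 kb averaged 2.84 ± 1.46 RPM and 2.27 ± 1.36 RPM (SD over bins). In the last and the next 500 kb, H3.1K36M averaged 4.07 and 3.38 RPM, and H3.1WT 3.83 and 3.303 RPM. At the proximal end, the first 500 kb of the window averaged 7.78 RPM in H3.3K36M cells and 6.92 RPM in H3.3WT cells, and the 500 kb before it 6.25 and 5.75 RPM.

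**Figure D1:**
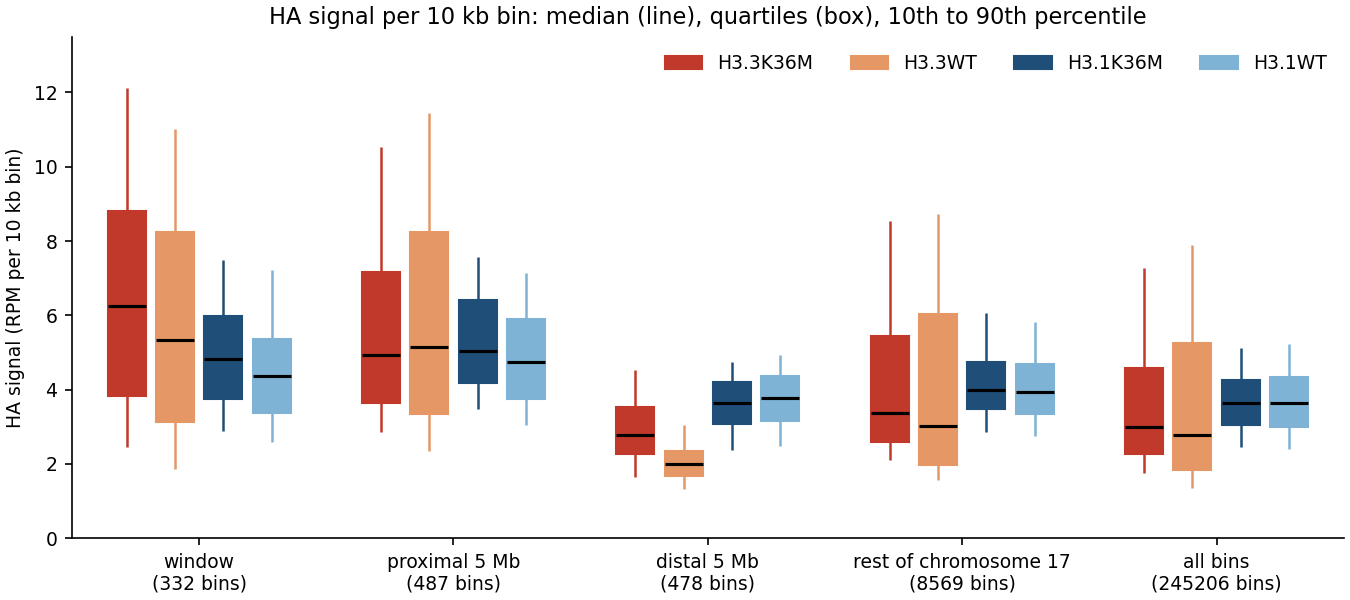
HA signal per 10 kb bin (vertical axis, RPM) in the window, the 5 Mb on each side, the rest of chromosome 17 and all bins, for the 4 libraries; the black line is the median, the box the quartiles and the thin line the 10th to 90th percentile. The H3.3 boxes stand highest in the window and its proximal side. In the distal side the H3.3WT box falls below the H3.1 boxes, while the H3.3K36M box overlaps them and has a lower median.

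Within the window, H3.3 formed blocks of high and low signal, and the same blocks stood in both H3.3 lines. Over 34 tiles of 100 kb, the highest tile exceeded the lowest 6.54-fold in H3.3K36M and 9.02-fold in H3.3WT, against 3.01-fold in H3.1K36M and 3.40-fold in H3.1WT. The highest tile of both H3.3 lines was chr17:35900001-36000000, with 12.7 RPM per 10 kb in H3.3K36M and 11.9 RPM in H3.3WT cells, where H3.1K36M had 6.74 RPM and H3.1WT 7.17 RPM. Next in both lines was chr17:35100001-35200000, with 11.97 RPM in H3.3K36M cells and 11.5 RPM in H3.3WT cells. The first tile, chr17:33900001-34000000, held 11.7 and 10.6 RPM, and chr17:35800001-35900000 held 11.1 and 10.13 RPM, in H3.3K36M and H3.3WT. Among the 5 highest tiles, the lines differed in 1: it was chr17:35000001-35100000 in H3.3K36M, at 10.6 RPM against 9.71 RPM in H3.3WT cells, and chr17:36000001-36100000 in H3.3WT, at 10.8 RPM against 10.3 RPM in H3.3K36M cells.

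The lowest tiles were also shared. The same 5 tiles were lowest in H3.3K36M and in H3.3WT: 3 touching ones at chr17:36600001-36900000, 1 at chr17:34400001-34500000 and 1 at chr17:35500001-35600000. The lowest of H3.3WT, chr17:36800001-36900000, held 1.95 RPM in H3.3K36M cells and 1.32 RPM in H3.3WT cells, with 2.35 RPM in H3.1K36M cells and 2.12 RPM in H3.1WT cells. At chr17:34400001-34500000 the values were 2.79 RPM in H3.3K36M cells and 2.00 RPM in H3.3WT cells, while H3.1K36M had 3.76 RPM and H3.1WT 3.29 RPM. Pearson's r of log2 RPM over bins, which are no replicates of each other, between H3.3K36M and H3.3WT was 0.962 in the window (332 bins), 0.911 in the proximal side (487 bins), 0.871 in the distal side (478 bins) and 0.861 over all bins. Between H3.1K36M and H3.1WT it was 0.934 in the window, 0.902 in the proximal side, 0.944 in the distal side and 0.884 over all bins.

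**Figure D2:**
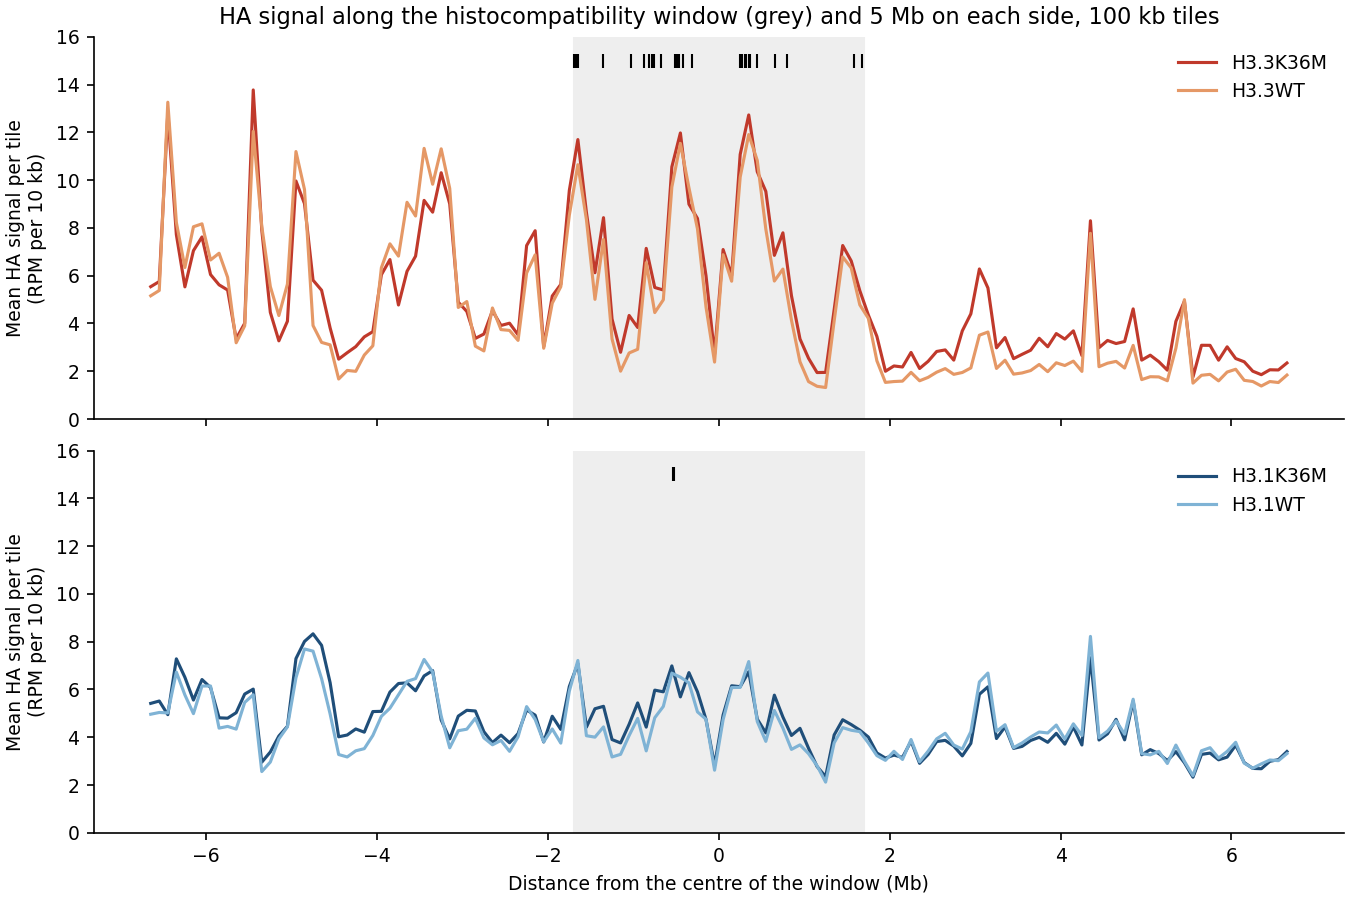
Mean HA signal (vertical axis, RPM per 10 kb) in 100 kb tiles against distance from the centre of the window (horizontal axis, Mb), for the H3.3 libraries (top) and the H3.1 libraries (bottom); the window is grey and black ticks mark its H3.3K36M peaks (top) and H3.1K36M peaks (bottom), with peaks outside it not drawn. The H3.3 lines rise to between 10.13 and 12.7 RPM in the highest tiles of the window, drop under 3 RPM in its lowest tiles and lie low in most of the distal side; tiles as high also occur in the proximal side.

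A pair of stretches, called troughs here, averaged less H3.3 than the window as a whole. They are runs of 100 kb tiles with less signal in H3.3WT than in H3.1WT, and they were the only 2 such runs left when the libraries were also scaled by the median of bin ratios; as deposited there were 5 runs with 12 of the 34 tiles. The first trough, chr17:34400001-34700000, averaged 3.65 ± 1.71 RPM in H3.3K36M cells, 2.56 ± 1.05 RPM in H3.3WT cells, 4.58 ± 1.35 RPM in H3.1K36M cells and 4.05 ± 1.17 RPM in H3.1WT cells (SD over 30 bins). Its H3.3 levels lay near those of the median bin of the genome, 3.004 RPM for H3.3K36M and 2.77 RPM for H3.3WT. The tile chr17:35500001-35600000, in neither trough, held less, at 2.71 RPM in H3.3K36M cells and 2.38 RPM in H3.3WT cells. The second trough, chr17:36500001-36900000, averaged 2.50 ± 1.12, 1.70 ± 0.738, 3.34 ± 1.27 and 3.04 ± 1.06 RPM in the same order (SD over 36 bins). The WT libraries defined the troughs, so their own ratio there is a description: H3.3WT exceeded H3.1WT in 0 of 30 and 0 of 36 bins. The K36M libraries were not used to define them, and their fold of H3.3K36M over H3.1K36M was 0.798 (0.767 to 0.830) in the first trough and 0.750 (0.718 to 0.783) in the second. H3.3K36M exceeded H3.1K36M in 4 of 30 and 4 of 36 bins, against 32.1% of all bins and 15.9% of those in the distal side. Over the bins of the troughs the median log2 value of this ratio was -0.44 and -0.40, against -0.30 over all bins, and the scaling, which adds 0.29, brings the folds to 0.973 and 0.915.

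Runs of tiles with more signal in H3.3WT than in H3.1WT, called blocks here, lay between and beside the troughs. The longest as deposited was chr17:35800001-36500000 (after scaling it was chr17:34700001-36500000, 1800 kb), with 9.07 ± 3.58 RPM in H3.3K36M cells and 8.14 ± 3.49 RPM in H3.3WT cells against 5.21 ± 1.78 RPM in H3.1K36M cells and 4.96 ± 1.92 RPM in H3.1WT cells (SD over 70 bins). In the K36M libraries H3.3 exceeded H3.1 there 1.74-fold (1.71 to 1.78), in 62 of 70 bins, against 32.1% of all bins. The block chr17:35000001-35400000 averaged 9.98 RPM in H3.3K36M cells and 9.72 RPM in H3.3WT cells, with 6.32 RPM in H3.1K36M cells and 6.13 RPM in H3.1WT cells. The proximal block chr17:33900001-34400000 averaged 7.78, 6.92, 5.21 and 4.60 RPM in that order. The distal block chr17:36900001-37300000 was the weakest of these, at 5.96, 5.50, 4.42 and 4.17 RPM.

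H3.3WT set against H3.1WT shows where the 2 variants part. In the window H3.3WT was at least 2-fold higher in 61 bins (18.4%), where the share of all bins was 10.3%, and at least 2-fold lower in 17 (5.12%), where it was 16.8%. Scaling by the median of bin ratios turned these into 104 and 1, and it raises every value of this ratio by 0.43 on the log2 scale. The rule is one of size with no test, on the scale of log2(RPM + 0.1), on which changes of low bins come out too small. The median log2 ratio was 0.14 in the window and 0.03 in the proximal side, but -0.87 in the distal side and -0.43 over all bins, so the window lay 0.57 above all bins. The 2-fold higher bins merged into 32 separate regions, none longer than 40 kb, and the lower ones into 14.

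The single bin with the highest log2 ratio, at 2.63, was chr17:35280001-35290000, which held 19.5 RPM in H3.3WT cells and 3.06 RPM in H3.1WT cells. Among the merged regions the ratio of summed reads was highest at chr17:34240001-34270000. It held 13.3 RPM in H3.3K36M cells and 12.0 RPM in H3.3WT cells, against 2.90 RPM in H3.1K36M cells and 2.44 RPM in H3.1WT cells, so that H3.3WT was 4.91-fold higher than H3.1WT (4.31 to 5.62). An H3.3K36M peak overlapped it. After it came chr17:33950001-33960000, at 3.74-fold (3.17 to 4.43) with 18.1 RPM in H3.3WT cells and 4.84 RPM in H3.1WT cells, and chr17:34050001-34060000, at 3.55-fold (2.84 to 4.48). Extremes picked by a ratio tend to exaggerate it, which the intervals leave out of account. The fold was lowest at chr17:36840001-36850000 in the second trough, with 0.688 RPM in H3.3WT cells and 2.09 RPM in H3.1WT cells, which is 3.04-fold lower in H3.3WT (1.99 to 4.76). The lowest also included chr17:34470001-34480000 in the first trough, with 1.70 RPM in H3.3WT cells and 4.19 RPM in H3.1WT cells, 2.47-fold lower (1.86 to 3.28).

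The K36M lines gave a second, separate pair of libraries for this comparison of the variants. H3.3K36M was at least 2-fold above H3.1K36M in 62 bins of the window (18.7%, against 8.18% of all bins) and at least 2-fold below it in 2 (0.602%, against 3.29%). In the proximal side 11.3% of bins were above and 1.03% below, and in the distal side 1.05% and 1.67%. After that scaling, which adds 0.29 here, the window's counts were 90 and 0. The median log2 ratio was 0.15 in the window, -0.15 in the proximal side, -0.37 in the distal side and -0.30 over all bins. The ratios of the WT lines and of the K36M lines share no library. Their Pearson's r across the 332 bins was 0.901, against 0.890 in the proximal side, 0.524 in the distal side and 0.769 over all bins. The region chr17:34240001-34270000 was among the 5 highest again, 4.59-fold higher in H3.3K36M (4.09 to 5.16). So was chr17:36370001-36380000, with 12.5 RPM in H3.3K36M cells and 2.70 RPM in H3.1K36M cells, 4.63-fold higher (3.77 to 5.74), where H3.3WT had 8.88 RPM and H3.1WT 2.55 RPM. At chr17:35180001-35200000 H3.3K36M had 15.2 RPM and H3.1K36M 3.48 RPM, 4.38-fold higher (3.85 to 5.00). The lowest was chr17:34620001-34630000 in the first trough, with 3.32 RPM in H3.3K36M cells and 7.40 RPM in H3.1K36M cells, 2.23-fold lower (1.81 to 2.76).

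Mutant and wild-type H3.3 were then compared along the window, with 1 library each. Few bins of the window differed by size: H3.3K36M was at least 2-fold higher in 4 of them (1.20%, where the share of all bins was 2.94%) and at least 2-fold lower in 0 (1.81% of all bins). The share of 2-fold higher bins was 0.411% in the proximal side and 5.02% in the distal side, and both sides also had 0 lower. The median log2 ratio was 0.21, against 0.17 in the rest of chromosome 17 and 0.10 over all bins, and 260 of 332 bins (78.3%) were higher in H3.3K36M, against 49.9% in the proximal side, 93.9% in the distal side and 58.4% of all bins. It was -0.0020 in the proximal side and 0.43 in the distal side. Scaling by the median of bin ratios lowers every value of this ratio by 0.12, which leaves the window at 0.086. The SD of the ratio over bins was 0.29 in the window, against 0.36 in the proximal side, 0.32 in the distal side and 0.49 over all bins. The bins of the window held more reads than the median of 116 (H3.3K36M) and 129 (H3.3WT) over all bins, and the part of counting error in this SD was not tested.

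Within the window, the ratio of H3.3K36M to H3.3WT was highest in the troughs. The first trough had a 1.43-fold higher signal in H3.3K36M (1.36 to 1.49), in 28 of 30 bins, and the second a 1.47-fold higher one (1.40 to 1.55), in 35 of 36 bins. Over its bins each trough had a median log2 ratio of 0.46. The distal side had 0.43, with 93.9% of bins higher in H3.3K36M. In the lowest of 3 equal classes of all bins by H3.3WT the median was 0.44, with 73732 of 81735 bins above 0. Ratios of this size were thus also found in H3.3-poor bins outside the window. The tile with the highest ratio, in the second trough, chr17:36600001-36700000, had 2.54 RPM in H3.3K36M cells and 1.57 RPM in H3.3WT cells, 1.62-fold higher (1.47 to 1.79). In the block chr17:35000001-35400000 the lines were close, at a fold of 1.03 (1.00 to 1.05) that scaling turns to below 1, and in chr17:35800001-36500000 H3.3K36M was 1.11-fold higher (1.09 to 1.13). H3.3WT helped to define the troughs and is the denominator here, so these values are not independent of that choice. As deposited, 32 of the 34 tiles were higher in H3.3K36M, and after scaling 22 were.

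The single bins named next were picked as extremes of H3.3K36M over H3.3WT. At chr17:34570001-34580000, inside the first trough, H3.3K36M had 8.75 RPM and H3.3WT 3.55 RPM, while H3.1K36M had 3.93 RPM and H3.1WT 4.41 RPM. That is 2.47-fold higher in H3.3K36M (2.04 to 2.99), and the trough's 1 H3.3K36M peak lay in this bin. The other 3 bins past 2-fold lay in the second trough and held no peak. At chr17:36670001-36680000 there were 4.20 RPM in H3.3K36M cells and 1.87 RPM in H3.3WT cells (2.24-fold, 1.72 to 2.95, on 162 and 87 reads). At chr17:36820001-36830000 there were 2.12 and 0.968 RPM (2.20-fold, 1.51 to 3.23, on 82 and 45 reads). At chr17:36730001-36740000 there were 2.90 and 1.38 RPM (2.11-fold, 1.54 to 2.91, on 112 and 64 reads). After scaling, 2 bins of the window were past 2-fold. In the other direction the lowest was chr17:35280001-35290000, with 14.3 RPM in H3.3K36M cells and 19.5 RPM in H3.3WT cells, 1.36-fold lower (1.22 to 1.52). That bin had the highest H3.3WT signal of the window and held an H3.3K36M peak. Next was chr17:34000001-34010000, with 3.08 RPM in H3.3K36M cells and 4.19 RPM in H3.3WT cells.

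**Figure D3:**
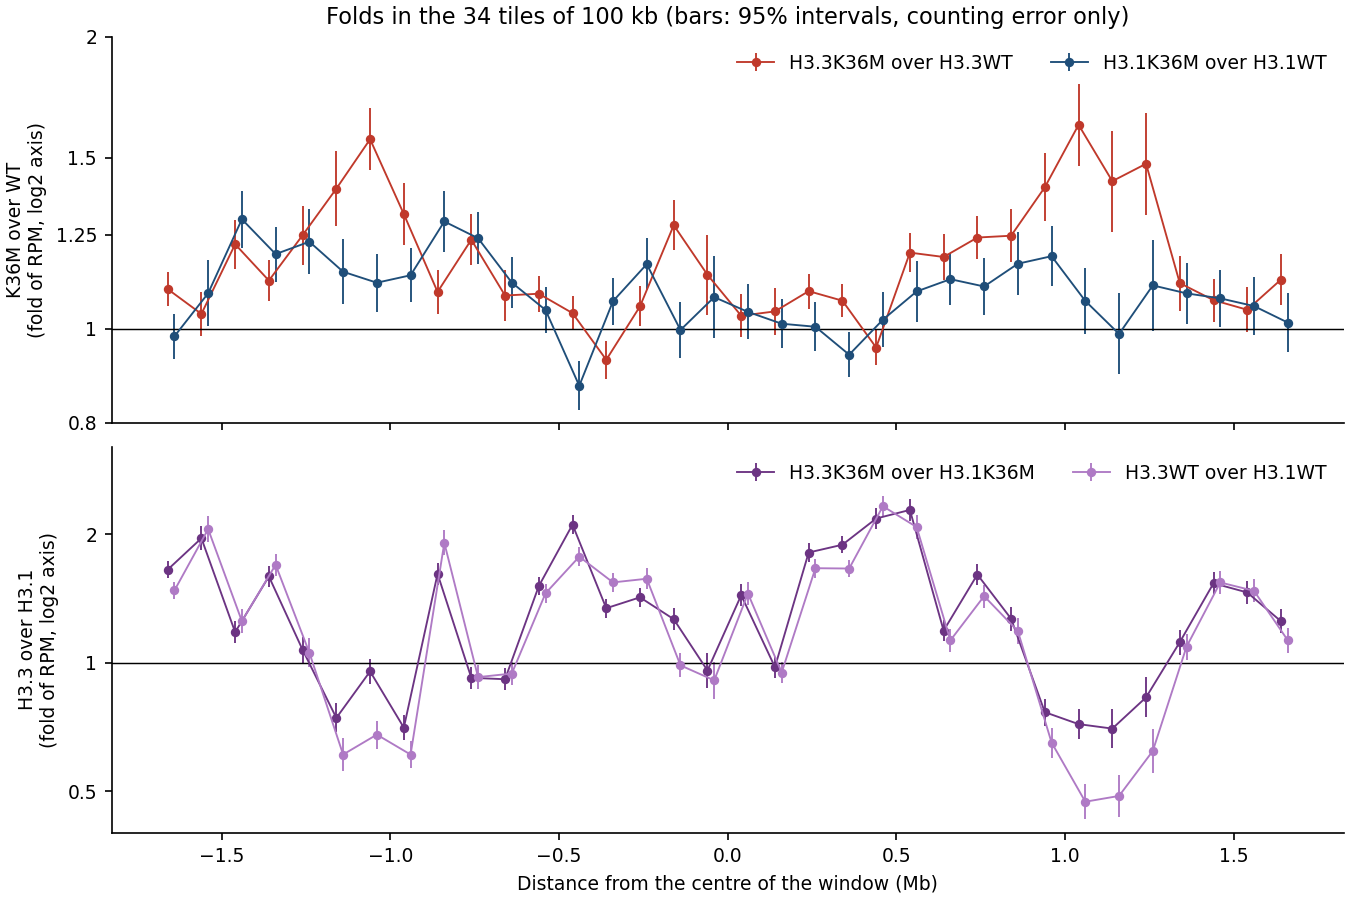
Folds of RPM (vertical axes, log2 scale) in the 34 tiles of 100 kb against distance from the centre of the window (horizontal axis, Mb): K36M over WT for H3.3 and H3.1 (top) and H3.3 over H3.1 for the K36M and WT lines (bottom), with 95% intervals that cover counting error only. H3.3K36M over H3.3WT peaks at 1.57-fold and 1.62-fold in the 2 troughs.

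With the bins of the window divided into 3 equal classes by H3.3WT, H3.3K36M over H3.3WT had a median log2 value of 0.42 in the H3.3-poorest class, 0.18 in the middle and 0.05 in the H3.3-richest. Classes by H3.3K36M, where that library's deviations push the other way, gave 0.34, 0.16 and 0.13, and classes by the geometric mean of both gave 0.37, 0.17 and 0.08. The order of the poorest and richest class was the same in each, while scaling, which lowers all classes by 0.12, takes the richest below 0 in the first and the last of these. Over all bins, classes by the geometric mean gave 0.34, 0.10 and -0.14. The H3.3-richest class of the window held 9.89 RPM in H3.3K36M cells and 9.55 RPM in H3.3WT cells in the median, and that of all bins 5.74 and 6.51 RPM. The classes are therefore not matched in signal between the window and the genome. These classes were chosen after seeing the data.

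**Figure D4:**
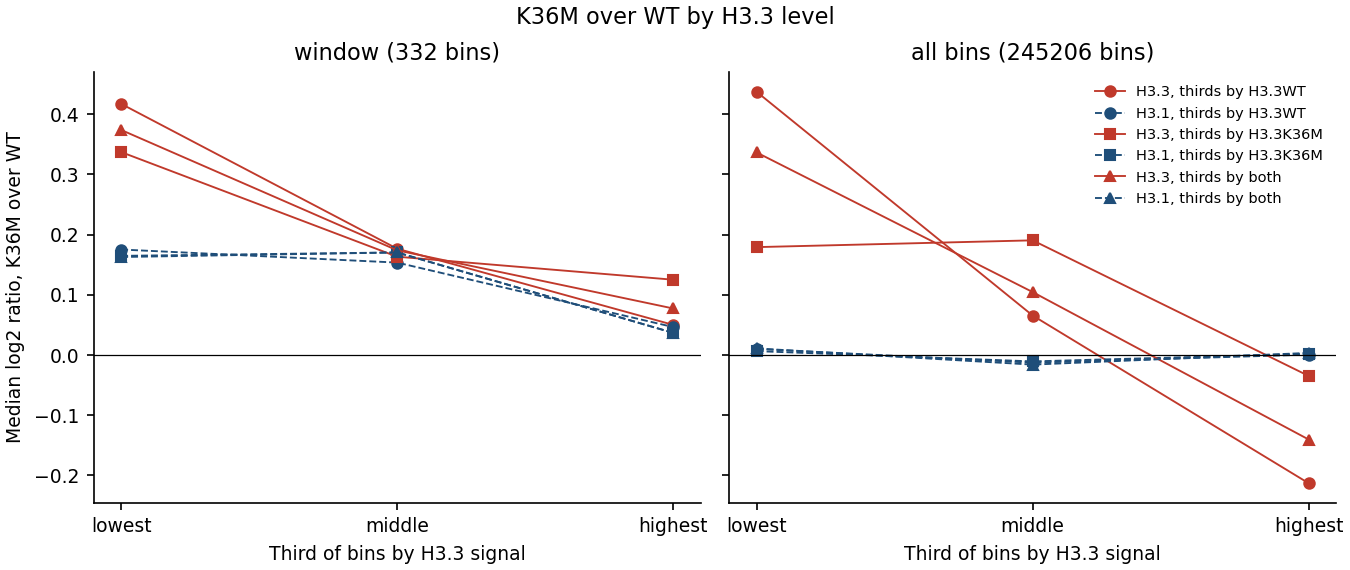
Median log2 ratio of K36M over WT (vertical axis) in 3 equal classes of bins by H3.3 signal (horizontal axis), in the window (left) and over all bins (right), for H3.3 (solid red) and H3.1 (dashed blue), with classes by H3.3WT (circles), by H3.3K36M (squares) and by the geometric mean of both (triangles). In the window all 3 ways of forming classes place the H3.3-poorest class, at 0.34 to 0.42, above the richest, at 0.05 to 0.13.

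H3.1K36M and H3.1WT differed little in the window, by an amount that varied along it. No bin was at least 2-fold higher in H3.1K36M (0.0122% of all bins were) and none at least 2-fold lower (0.064% of all bins). The same held in the proximal and the distal side. The median log2 ratio was 0.12, against 0.11 in the proximal side, -0.05 in the distal side, 0.03 in the rest of chromosome 17 and -0.0009 over all bins. H3.1K36M was higher in 239 of 332 bins (72.0%), against 71.5% in the proximal side and 49.8% of all bins. Summed over the window, H3.1K36M was 1.08-fold higher (1.07 to 1.09). The tiles furthest up were chr17:34100001-34200000, with 5.19 RPM in H3.1K36M cells and 4.00 RPM in H3.1WT cells, 1.30-fold higher (1.21 to 1.39), and chr17:34700001-34800000, with 4.42 and 3.43 RPM, 1.29-fold higher (1.20 to 1.39). At chr17:35100001-35200000, an H3.3-rich tile, H3.1K36M had 5.69 RPM and H3.1WT 6.51 RPM, a fold of 0.873 (0.824 to 0.925).

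This H3.1 ratio was lower where H3.3 was rich, a relation that shares no library with the classes. By the geometric mean of the H3.3 libraries, its median log2 value was 0.16 in the H3.3-poorest class (87 of 111 bins above 0), 0.17 in the middle (90 of 110) and 0.04 in the richest (62 of 111). Over all bins the classes had 0.01, -0.02 and 0.0035. Scaling moves all values of this ratio by 0.02. The lowest value of this H3.1 ratio was at chr17:34250001-34260000, inside the merged region chr17:34240001-34270000 described above. That bin had 0.868 RPM (36 reads) in H3.1K36M cells and 1.44 RPM (51 reads) in H3.1WT cells, 1.66-fold lower (1.06 to 2.62). Its H3.3 signal was 14.8 RPM in H3.3K36M cells and 9.24 RPM in H3.3WT cells. The highest values of the ratio included chr17:34190001-34200000, with 5.90 RPM in H3.1K36M cells and 3.42 RPM in H3.1WT cells (1.72-fold, 1.38 to 2.16). The ratio was higher, 2.23-fold (1.15 to 4.60) with no pseudocount, only at chr17:34360001-34370000, which held 34 reads in H3.1K36M and 13 in H3.1WT. Bin by bin, K36M over WT in H3.3 and in H3.1, which share no library, had a Pearson's r of 0.035 over the window.

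The authors' deposited lists placed 28 H3.3K36M peaks in the window, which is 8.24 per Mb, against 6.20 per Mb in the proximal side, 1.00 per Mb in the distal side, 4.49 per Mb in the rest of chromosome 17 and 3.42 per Mb over all bins. The peaks covered 169.2 kb, or 4.98% of the window. Of the 332 bins, 38 shared at least 1 base with one, or 11.4%. That share was 9.03% in the proximal side, 1.05% in the distal side and 4.25% over all bins. Peaks of at least 10 kb were 7 of the 28, and 569 of the 8375 in the whole list. They were 6 of 31 in the proximal side and 0 of 5 in the distal side. The lists give positions with no score, and the sources used here do not say whether 1 library or more went into them.

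Of the 28 H3.3K36M peaks of the window, 24 lay in runs of tiles with H3.3WT above H3.1WT and 4 in runs with it below, as deposited. The runs above took up 22 of the 34 tiles. After scaling, 27 peaks lay in the 27 tiles of runs above and 1 in the 7 tiles of runs below. Joined across gaps of up to 50 kb the 28 peaks made 14 groups. The largest group held 7 peaks over 143.8 kb at chr17:35833401-35977200, with a mean of 12.8 RPM in H3.3K36M cells, 11.5 RPM in H3.3WT cells, 6.69 RPM in H3.1K36M cells and 6.93 RPM in H3.1WT cells. Another 5 lay at chr17:35080201-35185800, at 12.7, 12.1, 5.76 and 6.43 RPM in that order, and 3 at chr17:33898801-33953000, the proximal edge, at 13.4, 11.8, 6.78 and 6.99 RPM. A further 3 lay at chr17:34777001-34844800, at 7.88, 6.75, 5.50 and 4.23 RPM, partly in a run with H3.3WT below H3.1WT. The longest stretch with no peak, 784.2 kb at chr17:36396401-37180600, took in the whole second trough.

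**Figure D5:**
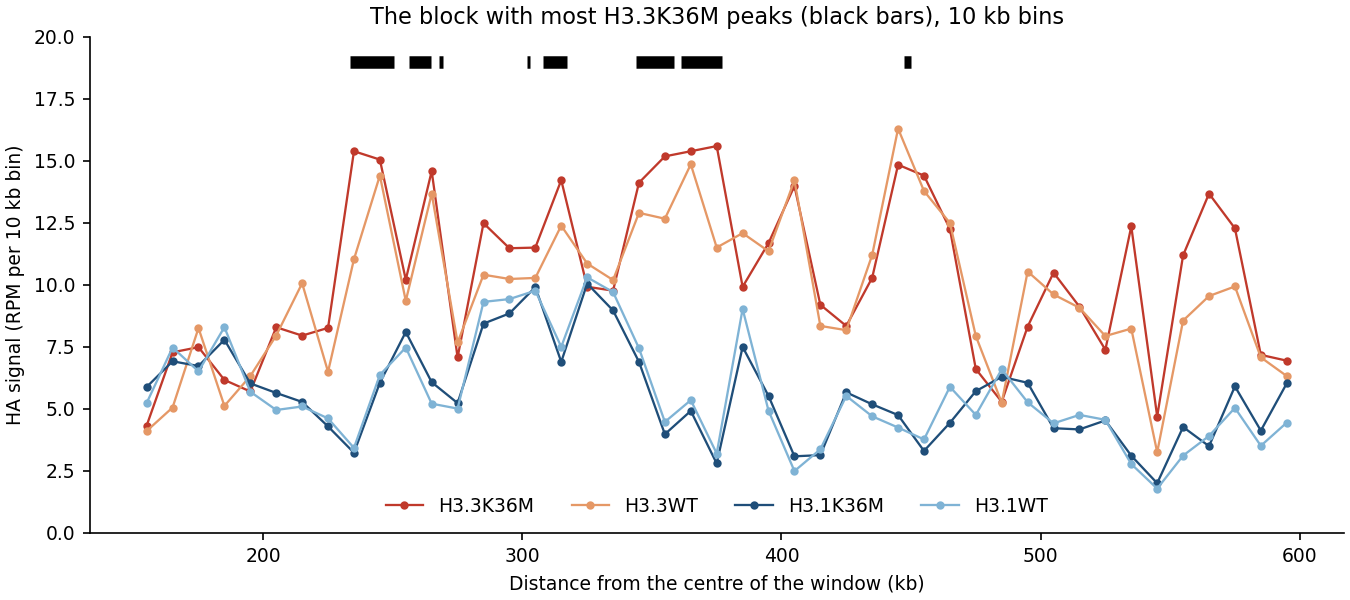
HA signal per 10 kb bin (vertical axis, RPM) against distance from the centre of the window (horizontal axis, kb) around the largest group of H3.3K36M peaks, for the 4 libraries, with the peaks as black bars. The H3.3 lines run together well above the H3.1 lines at the last peak of the group, whose bins average 15.5 RPM in H3.3K36M cells and 3.86 RPM in H3.1K36M cells, and draw level with them past the middle of the group, where 1 bin holds 9.92 RPM in H3.3K36M cells and 10.3 RPM in H3.1WT cells.

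The longest peaks were chr17:33914001-33938400 (24.4 kb), chr17:35833401-35850600 (17.2 kb), chr17:35961401-35977200 (15.8 kb), chr17:35944001-35958600 (14.6 kb) and chr17:34244401-34255000 (10.6 kb). Bins in the first averaged 15.8 RPM in H3.3K36M cells, 12.3 RPM in H3.3WT cells, 6.89 RPM in H3.1K36M cells and 7.37 RPM in H3.1WT cells, and it held the highest H3.3K36M bin of the window, chr17:33920001-33930000, at 20.9 RPM. In the last they averaged 15.0, 13.2, 2.90 and 2.38 RPM. The other 5 of the 10 longest were chr17:35080201-35090400, chr17:35175801-35185800, chr17:35908001-35917400, chr17:35096401-35105600 and chr17:35856401-35864600, with means of 12.4 to 16.6 RPM in H3.3K36M cells and 11.3 to 15.2 RPM in H3.3WT cells.

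Peak bins were rich in H3.3 in the line whose peaks were not used. Their median was 13.7 RPM in H3.3K36M cells and 11.0 RPM in H3.3WT cells, with 5.07 RPM in H3.1K36M cells and 4.97 RPM in H3.1WT cells. The 294 bins with no peak had 5.74, 5.07, 4.80 and 4.27 RPM in that order. Bins of 26 of the 28 peaks had more H3.3WT than H3.1WT, as did 56.6% of the window's bins and 35.7% of all bins. Some neighbouring peaks share a bin, so the 28 are not separate observations. Peaks called in H3.3K36M favour that library, so the excess of H3.3K36M over H3.3WT at 24 of the 28 is given with nothing read from it. A peak was no condition for high H3.3: 15 bins with no peak reached the peak bins' median in H3.3WT and 5 did so in H3.3K36M. Near the low end, the peak at chr17:34922201-34923200 lay in a bin with 4.25 RPM in H3.3K36M cells, 3.68 RPM in H3.3WT cells, 5.11 RPM in H3.1K36M cells and 4.08 RPM in H3.1WT cells.

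Both H3.1K36M peaks of the window sat next to each other beside a group of H3.3K36M peaks. They were chr17:35063001-35065200 and chr17:35077601-35078600, the second 1.6 kb from an H3.3K36M peak, and neither overlapped one. The bin of the first had 9.32 RPM in H3.3K36M cells, 7.76 RPM in H3.3WT cells, 9.59 RPM in H3.1K36M cells and 8.94 RPM in H3.1WT cells. That of the second had 10.08, 11.3, 8.58 and 8.86 RPM in that order. H3.1WT was thus within 1 RPM of H3.1K36M at both. The share of bins with an H3.1K36M peak was 0.602% (2 of 332), against 0.0338% of all bins. The highest H3.1 bins of the window lay elsewhere: chr17:35920001-35930000 had 10.0 RPM in H3.1K36M cells and 10.3 RPM in H3.1WT cells, and chr17:35200001-35210000 had 9.52 and 10.4 RPM.

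Some rows were low in every library. In 10 of the 334 rows all 4 libraries lay under 0.5 times their all-bin median, or 2.99%, against 3.36% of all 10 kb rows, 0.205% in the proximal side and 5.60% in the distal side. Of these, 6 lay in the second trough, including chr17:36800001-36810000 and chr17:36810001-36820000, the rows that failed the filter, with 0.285 and 0.0518 RPM in H3.3K36M cells and 0.237 and 0.0645 RPM in H3.3WT cells. How many reads of repeated or strain-variable sequence failed to align is not known here, and input libraries were not used here, so low HA signal and poor alignment cannot be told apart in these rows.

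Among the 709 windows of 3.4 Mb laid end to end over the genome with at least 300 bins, the H2 window ranked 13 from the top in median H3.3K36M signal and 75 in H3.3WT. It ranked 36 in H3.1K36M and 68 in H3.1WT. It was 24 from the top in the median ratio of H3.3K36M over H3.1K36M, 118 in that of H3.3WT over H3.1WT, 246 in that of H3.3K36M over H3.3WT and 72 in that of H3.1K36M over H3.1WT. By number of H3.3K36M peaks it ranked 29, with 28 against a median of 10 per window. It was 29 from the bottom by how much that of H3.3K36M over H3.3WT varied among bins (SD of log2). These ranks describe single libraries and are no test.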

How the data were processed

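HA ChIP-seq signal was analysed for 4 lines with 1 library each; 4 input libraries were not used here. Groups follow the genotype labels. The submitters' processing notes name Bowtie 1.0.0 and the build mm9. The sources used here do not give the bin counting, the peak caller or its threshold. The labels' protocol names a Cbx2 antibody and the sample descriptions an HA antibody, which was followed. The authors deposited RPM per genomic bin and 2 peak lists, whose other columns are positions. Dividing each RPM column by its lowest nonzero value gave whole reads for 100% of values (tolerance 0.01 read), with totals of 38783917 (H3.3K36M), 46749609 (H3.3WT), 41705735 (H3.1K36M) and 35487141 (H3.1WT) reads. With no replicate, no count test was run on them.

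Only 10 kb rows whose 4-library mean was 0.5 RPM or more were used. Folds are ratios of RPM; log2 ratios use a pseudocount of 0.1 RPM. A peak belongs to the region that holds its midpoint. Named were the 5 highest and 5 lowest regions of each ratio (touching bins at least 2-fold apart, or single bins where fewer than 5 existed), from which the text gives the extremes, the extreme 100 kb tiles, the 10 longest peaks and the highest bins. The members and lists were chosen with earlier results of these data known. The troughs, the 3 classes by H3.3 level, the groups of peaks and the rows low in every library were chosen after seeing the data. Steps were tested on simulated data. Coordinates are 1-based in mm9. Scripts ran under Python 3.11.15 with pandas 2.3.3, numpy 2.4.6, matplotlib 3.10.9 and scipy 1.17.1.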

Additional observations from a re-analysis of the deposited data

Results flagged for a closer look

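In 2 tiles of 100 kb the K36M over WT folds of the variants lay on opposite sides of 1 with counting intervals that did not reach it; with 1 library per line the difference between the variants was not tested. At chr17:35200001-35300000 the fold was 0.929 in H3.3 (0.889 to 0.971) and 1.07 in H3.1 (1.01 to 1.13). At chr17:35900001-36000000 it was 1.07 in H3.3 (1.03 to 1.11) and 0.940 in H3.1 (0.891 to 0.993), and the scaled H3.3 fold was 0.982.

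The 3 rows of 20 kb, left out of the bins, also carried signal. H3.3K36M over H3.3WT was 1.02-fold at chr17:34060001-34080000 (0.904 to 1.14) and 1.11-fold at chr17:35540001-35560000 (0.935 to 1.32). At chr17:36770001-36790000, in the second trough, it was 2.15-fold (1.79 to 2.58), with 335 reads in H3.3K36M and 188 in H3.3WT.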

How the results depend on the processing

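No paired analysis was possible because each line has 1 library. No alternative changed the sign of a median ratio of the window or moved a summed fold across 1. Pseudocounts of 1 RPM gave median log2 ratios of 0.17 (H3.3K36M over H3.3WT), 0.10 (H3.1K36M over H3.1WT), 0.11 (H3.3WT over H3.1WT) and 0.13 (H3.3K36M over H3.1K36M), and 1 bin higher in the first and 0 bins lower in the last 2. A pseudocount of 0.01 RPM gave 1 bin higher in H3.1K36M. Keeping bins at or above the median signal gave 0.17, 0.28 and 0.31 for the H3.3K36M over H3.3WT, WT and K36M ratios, with 2 bins higher in the first, 4 lower in the second and 1 lower in the last. Scaling by the median of bin ratios gave medians of 0.086, 0.55 and 0.43, summed folds of 1.03, 1.76 and 1.66, and 2 bins higher, 104 higher with 1 lower, and 0 lower. Less the median of the rest of chromosome 17, the ratios were 0.031, 0.58 and 0.42, with 0.090 in H3.1, and the counts 1 higher, 105 higher with 1 lower, and 0 lower. A window shortened by 200 kb at each end gave 0.14 in H3.1, 0.079 in the WT and 0.10 in the K36M ratio. Without the top and bottom 1% of bins the summed folds of H3.3 over H3.1 were 1.29 in WT and 1.33 in K36M.

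Against 2 Mb on each side the window's mean was 1.45 times as high in H3.3K36M, 1.41 in H3.3WT and 1.12 in H3.1K36M; against the rest of chromosome 17 it was 1.51, 1.41, 1.17 and, in H3.1WT, 1.10. Tiles of 50 kb spanned 9.18-fold, 11.0-fold, 4.53-fold and 4.70-fold in H3.3K36M, H3.3WT, H3.1K36M and H3.1WT, and tiles of 200 kb 5.92-fold in H3.3K36M, 2.51-fold in H3.1K36M and 2.59-fold in H3.1WT. Peaks of at least their list's median length were 18 and 1, and 4.82% of bins were at least 0.5 covered by H3.3K36M peaks. Spearman's rho was 0.910 between the H3.1 libraries, 0.483 between the WT and 0.381 between the K36M libraries, where r was 0.934, 0.591 and 0.543. The richest class less the poorest was -0.37 in H3.3K36M over H3.3WT by H3.3WT, -0.21 by H3.3K36M and -0.30 by both. Of 40 named regions, 0 crossed a fold of 1 on scaling. The cause of these moves was not tested. The classes and their alternatives were added after seeing the data.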
